A study of Mus musculus with 32 samples.

Results

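The 10 genes of interest here belong to muscle stem cells and the myogenic programme, and they were followed at and away from the neuromuscular junction in young adult and old mouse muscle. They are Pax7, Myf5, Myf6, Myod1, Sdc4, Vcam1, Cdh15, Chodl, Megf10 and Calcr, chosen by name as known genes of these cells, and they make up 10 of the 24952 genes listed, of which 8 of 10 passed the filter on low counts against 13990 of all genes. In this study the mouse tibialis anterior, a fast muscle of the lower leg, was stained with α-bungarotoxin, a toxin that binds acetylcholine receptors, and synaptic (NMJ) and extra-synaptic (xNMJ) regions were cut out by laser-capture microdissection for poly(A) RNA sequencing. The 4 groups were NMJ and xNMJ regions at 10 months (10m) and at 30 months (30m) of age, with 8 libraries each. All mice were male C57BL/6JRj, were wild-type and were kept on the AIN93M control diet in single cages, the 10m mice for 2 to 3 months and the 30m mice for 16 months, so that age and time on the diet cannot be told apart. The study used the 2 regions to locate, within the muscle, the ageing-related expression patterns that it had tied to mTORC1 in whole muscles.

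Muscle stem cells, or satellite cells, lie between the fibre membrane and the basal lamina and are marked by the transcription factor Pax7. When they are activated they switch on the myogenic factors Myf5 and Myod1, divide, and then differentiate and fuse under Myog, whereas Myf6 is also made by the nuclei of mature fibres. Syndecan-4 (Sdc4), Vcam1, M-cadherin (Cdh15), chondrolectin (Chodl), Megf10 and the calcitonin receptor (Calcr) are surface proteins found on these cells, with roles that include adhesion, proliferation and quiescence, and several of them are also made by other cells. The libraries are bulk samples, in which fewer cells of a type and less RNA per cell cannot be told apart.

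The libraries held between 4026648 and 16516788 counts, with medians of 6062117 in xNMJ and 9605869 in NMJ at 10 months, then 6790011 in xNMJ and 9825357 in NMJ at 30 months. The average insert size of each library, as the labels give it, also differed between regions, with medians of 93.5 bp in xNMJ and 117.5 bp in NMJ at 10 months, then 96 bp in xNMJ and 107 bp in NMJ at 30 months, and replicate 8 of 10m NMJ stood apart at 52 bp, against 109 to 131 bp in the other 7 libraries of its group. Levels are given as CPM, the counts scaled to a common TMM-adjusted library size, for comparing 1 gene between samples, and a gene with 3 counts had between 0.152 and 0.932 CPM according to the library, which was taken as the limit of detection and covers counting error only. Levels of different genes are compared in TPM, a scale that also divides by transcript length. The labels do not say whether the libraries of a group, or NMJ and xNMJ libraries, came from separate animals. The p-values thus measure only the spread between these libraries, and would be too small if libraries of 1 group shared an animal. Animals shared between NMJ and xNMJ would be a pairing that the main fit ignores, and a fit with a replicate block is given at the end.

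The regions were checked against 6 genes of the nuclei below the synapse. The acetylcholine receptor subunits Chrne and Chrna1, the receptor kinase Musk, the transcription factor Etv5, and Colq and Ache of the synaptic acetylcholinesterase had a median summed level of 1024 TPM in 10m NMJ and 1030 TPM in 30m NMJ, against 9.61 and 11.9 TPM in the xNMJ groups. One xNMJ library stood apart from its label. Replicate 5 of 30m xNMJ had a summed level of 153 TPM, with Chrne at 78.5 TPM against 0 to 0.384 TPM in the other 7 libraries of its group. The members' calls and the list counts at 30 months were therefore also computed without it, and values that moved by over 1.5 times are given beside the result.

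**Figure D1:**
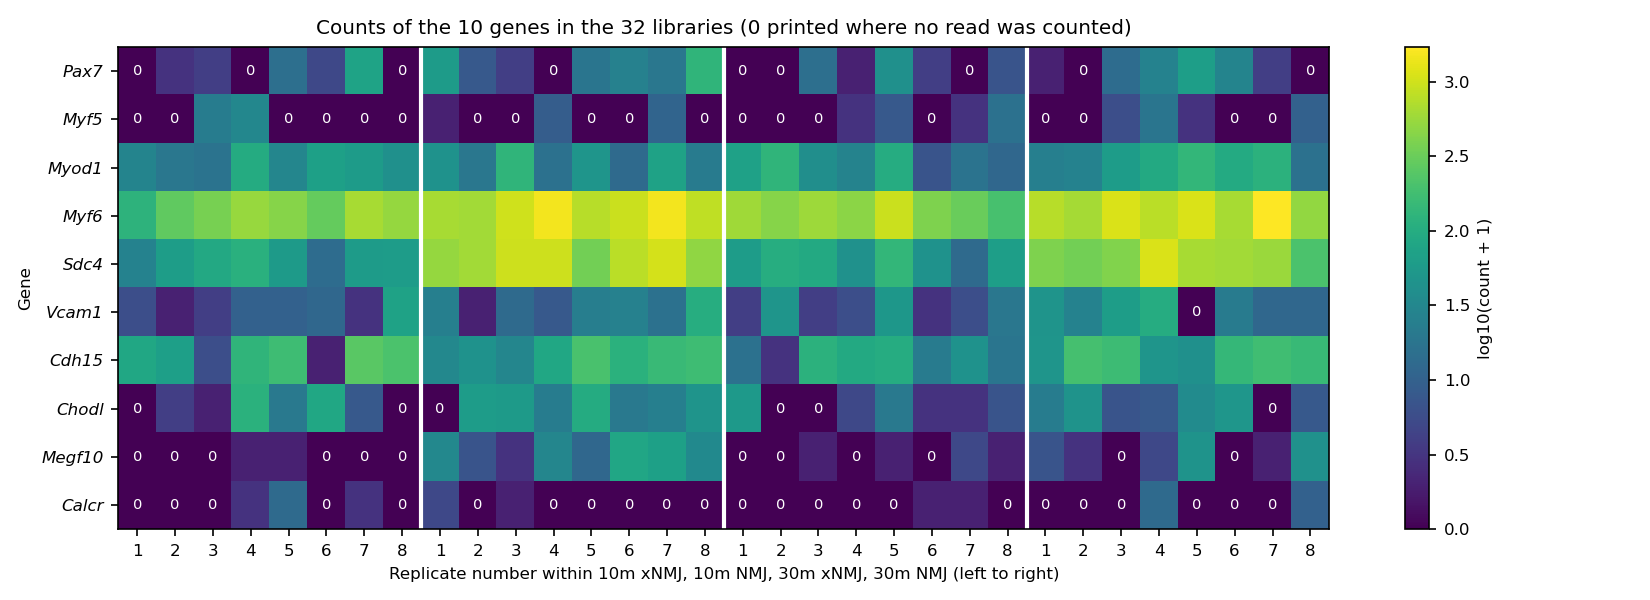
Counts of the 10 genes (rows) in each of the 32 libraries (columns, grouped by age and region), coloured by log10 of count + 1, with a printed 0 where a library had no count. Myf6, Myod1, Sdc4 and Cdh15 had counts in all 32 libraries, whereas Calcr had none in 23 and Myf5 none in 19.

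How well the 10 genes were measured differed widely, as the map of counts by library shows. Myf6 was the most abundant member on the TPM scale in 32 of 32 libraries and made up a median of 76.2% of the summed TPM of the members in xNMJ and 65.7% in NMJ at 10 months, then 82.3% in xNMJ and 69.9% in NMJ at 30 months. Sdc4 supplied 6.22% and 6.04% of that sum in the xNMJ groups and 26.5% and 19.8% in the NMJ groups at 10 and 30 months. The sparse genes were at the other end. Pax7 was detected in 23 libraries and exceeded the 3-count limit in 16, Myf5 in 13 and 9, and Calcr in 9 and 4. In 16 of the 40 sets of 1 gene in 1 group, a single library held 50% or more of the group's counts.

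Pax7 encodes the paired-box transcription factor that defines satellite cells, and lies on chromosome 4 (GRCm38, chr4:139737062-139833528, minus strand). Its counts in the 8 libraries were 0, 2, 3, 0, 14, 4, 73 and 0 in xNMJ and 59, 7, 3, 0, 17, 25, 18 and 130 in NMJ at 10 months, then 0, 0, 14, 1, 41, 3, 0 and 6 in xNMJ and 1, 0, 13, 26, 63, 28, 3 and 0 in NMJ at 30 months. Each group thus had libraries with no Pax7 count beside libraries with 41 or more, and the groups overlapped from 0 upwards. The mean level was 1.63 ± 2.87 CPM in xNMJ and 2.31 ± 2.59 in NMJ at 10 months, then 1.07 ± 1.36 in xNMJ and 1.10 ± 1.25 in NMJ at 30 months (SD, n = 8 each).

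Myf5, which commits satellite cells to the muscle lineage, was sparser still. The gene lies on chromosome 10 (chr10:107482908-107486134, minus strand), 6718 bp from Myf6. Its counts were 0, 0, 22, 30, 0, 0, 0 and 0 in xNMJ and 1, 0, 0, 8, 0, 0, 10 and 0 in NMJ at 10 months, then 0, 0, 0, 2, 7, 0, 2 and 15 in xNMJ and 0, 0, 5, 17, 2, 0, 0 and 9 in NMJ at 30 months. Between 2 and 4 libraries per group carried all of them. Of the 16 libraries with Pax7 above the limit, 5 also had Myf5 above it, which is 31.2% of the Pax7 libraries and 55.6% of the 9 Myf5 libraries.

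Myf6 (chr10:107492853-107494737, minus strand), the myogenic factor that mature fibres keep using, was counted in every library. It ranged from 37.6 to 93.3 CPM (median 71.0) in xNMJ and 42.3 to 94.9 (76.7) in NMJ at 10 months, then 43.6 to 122 (89.3) in xNMJ and 49.1 to 136 (62.7) in NMJ at 30 months, so that the 4 groups overlapped. Its coefficient of variation between libraries was 24.2% to 39.2% per group, against 37.5% to 49.7% for Sdc4 and 112% to 176% for Pax7.

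Myod1 (chr7:46376474-46379099, plus strand), the master switch of muscle conversion, was found in all 32 libraries at a low level. It ranged from 3.77 to 15.7 CPM (median 6.98) in xNMJ and 0.939 to 12.4 (2.90) in NMJ at 10 months, then 1.74 to 22.7 (6.24) in xNMJ and 1.66 to 9.33 (5.75) in NMJ at 30 months. At 10 months 7 of 8 NMJ libraries lay below the xNMJ median, and the groups still overlapped. The myogenic factors are related in sequence, so the chance that reads of 1 gene were counted for another was looked at. The longest run of bases that Myod1 and Myf5 transcripts share has 26 bases and lies in the part that encodes the basic region, which contacts DNA. The 60 bases around it are shown from GRCm38, Myod1 at chr7:46376986-46377045 (plus strand) and Myf5 at chr10:107485637-107485696 (minus strand), 5′ to 3′ along each transcript, with the shared run in capitals.
Myod1: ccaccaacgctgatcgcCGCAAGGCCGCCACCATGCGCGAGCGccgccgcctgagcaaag
Myf5: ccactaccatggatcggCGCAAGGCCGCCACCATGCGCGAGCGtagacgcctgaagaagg
The longest runs that Myf6 shares with either gene have 14 bases. No word of 31 bases in the transcripts of Pax7, Myf5, Myf6, Myod1, Cdh15, Megf10 or Calcr occurred in another protein-coding gene, and for Sdc4, Vcam1 and Chodl the share of such words was 0.783%, 0.257% and 0.184%.

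Sdc4 (chr2:164424247-164443887, minus strand) encodes syndecan-4, a heparan sulphate proteoglycan that serves as a co-receptor for growth factors on satellite cells and on many other cells. It ranged from 3.00 to 21.0 CPM (median 10.4) in 10m xNMJ and from 25.0 to 92.6 CPM (median 60.5) in 10m NMJ. At 30 months it ranged from 2.88 to 18.1 CPM (median 12.5) in xNMJ and from 22.5 to 77.0 CPM (median 38.5) in NMJ. Every NMJ library was above every xNMJ library of its own age, and the lowest NMJ library, at 22.5 CPM, was above the highest xNMJ library of either age.

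Megf10 (chr18:57133090-57297467, plus strand), a transmembrane protein with epidermal growth factor-like repeats that takes part in satellite cell proliferation and in engulfment by glia, was nearly absent outside the junction. Its counts were 0, 0, 0, 1, 1, 0, 0 and 0 in 10m xNMJ and 31, 6, 2, 29, 11, 80, 67 and 33 in 10m NMJ. At 30 months they were 0, 0, 1, 0, 1, 0, 4 and 1 in xNMJ and 6, 2, 0, 4, 45, 0, 1 and 42 in NMJ. All 8 NMJ libraries had Megf10 counts at 10 months and the groups did not overlap, although the lowest NMJ library (2 counts, 0.193 CPM) and the highest xNMJ library (1 count, 0.183 CPM) could not be told apart at this depth, whereas at 30 months 2 NMJ libraries held most of the counts, 2 had none, and the groups overlapped.

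Cdh15 (chr8:122847966-122867397, plus strand), M-cadherin, which joins satellite cells to the fibre, was found in every library. It ranged from 0.231 to 36.6 CPM (median 21.0) in xNMJ and 2.80 to 16.2 (6.85) in NMJ at 10 months, then 0.355 to 21.3 (7.38) in xNMJ and 2.20 to 19.99 (12.2) in NMJ at 30 months. The median was thus lower in NMJ than in xNMJ at 10 months and higher at 30 months, with groups that overlapped at both ages.

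Vcam1 (chr3:116109949-116129688, minus strand), an adhesion molecule of quiescent satellite cells and of activated endothelium, ranged from 0.223 to 12.6 CPM (median 1.33) in xNMJ and 0.113 to 5.23 (1.498) in NMJ at 10 months, then 0.546 to 8.51 (1.12) in xNMJ and 0 to 6.75 (2.17) in NMJ at 30 months. An exon of the gene overlaps the antisense gene Gm43109, and the libraries do not mark strand, so that reads of the overlap cannot be told apart. Chodl (chr16:78930948-78951733, plus strand), a C-type lectin of quiescent satellite cells that some motor neurons also make, ranged from 0 to 18.9 CPM (median 0.738) in xNMJ and 0 to 7.68 (2.06) in NMJ at 10 months, then 0 to 11.3 (0.703) in xNMJ and 0 to 4.74 (1.32) in NMJ at 30 months. For both genes the ranges overlapped between regions and ages. Of the 16 libraries with Pax7 above the limit, 14 also had Chodl above it, which is 87.5% of these and 63.6% of the 22 Chodl libraries.

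Calcr (chr6:3685680-3764714, minus strand), the receptor through which calcitonin-type signals hold satellite cells in quiescence, had 44 counts in all. They were 0, 0, 0, 2, 12, 0, 2 and 0 in xNMJ and 4, 0, 1, 0, 0, 0, 0 and 0 in NMJ at 10 months, then 0, 0, 0, 0, 0, 1, 1 and 0 in xNMJ and 0, 0, 0, 12, 0, 0, 0 and 9 in NMJ at 30 months. The most counts in any library were 12, and no direction could be read from them at this depth.

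**Figure D2:**
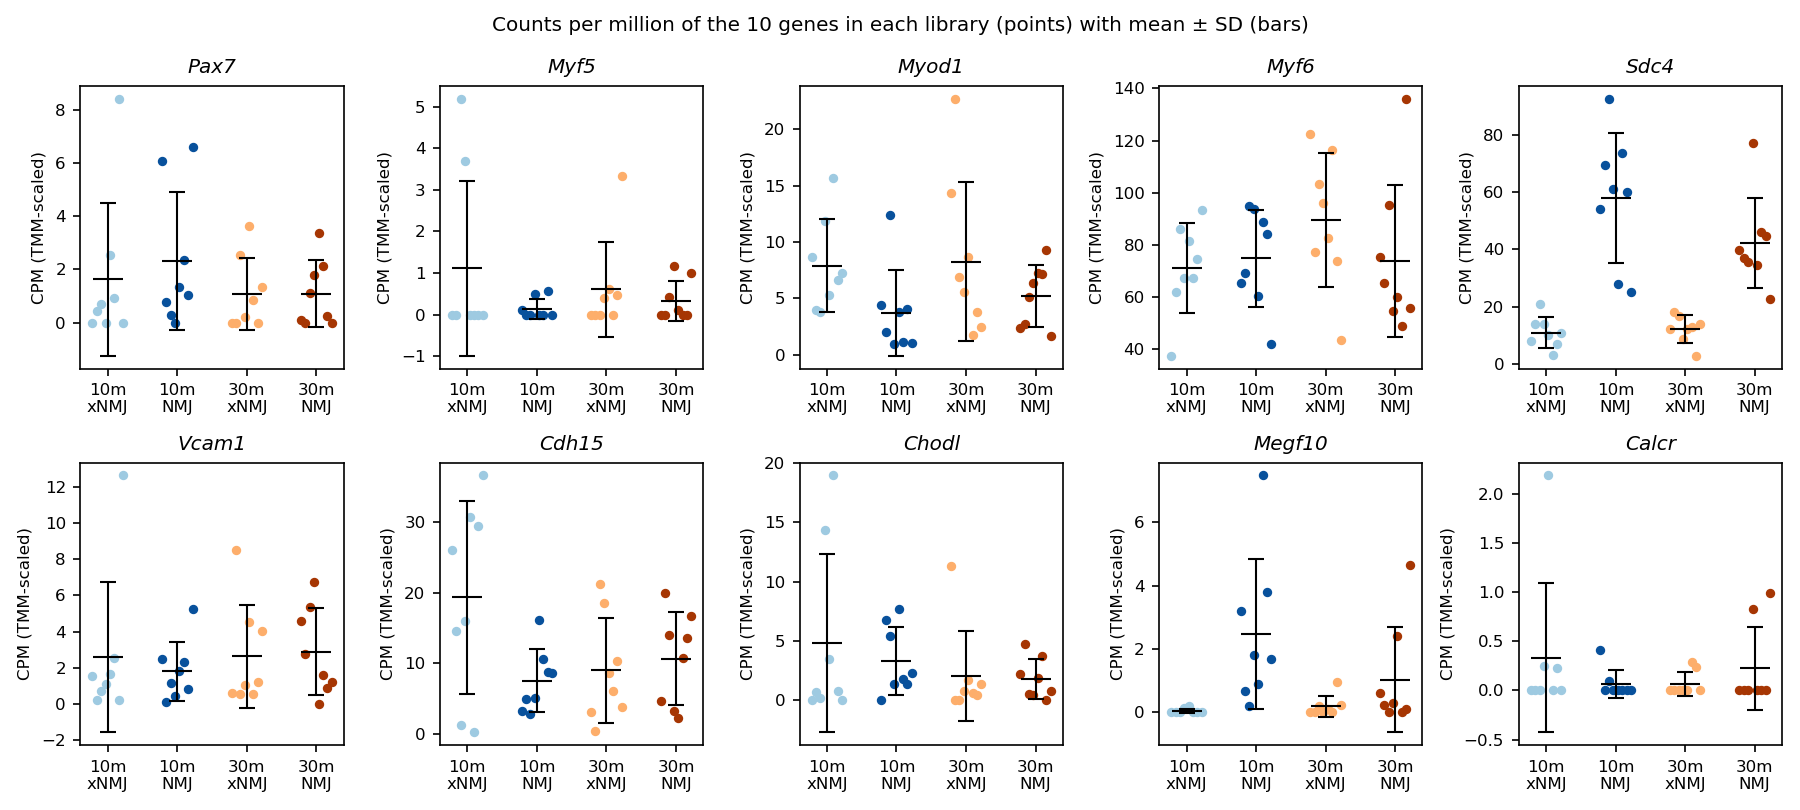
Level of each of the 10 genes (CPM, 1 panel per gene with its own axis) in the 8 libraries of each group, points for libraries and bars for the mean ± SD. The NMJ points of Sdc4 lie above all xNMJ points at both ages, those of Megf10 do so at 10 months (by 2 counts against 1 at the nearest), and the groups overlap for the other genes.

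NMJ and xNMJ regions were compared first at 10 months. Sdc4 was higher in NMJ. Megf10 also passed, within the limit of the filter given below, and none of the other 6 tested genes did in either direction. Sdc4 was 5.29-fold higher, with 10.9 ± 5.44 CPM in xNMJ and 58.0 ± 22.7 CPM in NMJ (SD, n = 8 each). Megf10 rose from 2 counts over the 8 xNMJ libraries to 259 over the 8 NMJ libraries. Of all 13990 genes tested, 6.5% were higher and 5.05% lower in NMJ at an adjusted p under 0.05. Megf10 passed the filter through NMJ libraries alone, as 6 libraries of 10m NMJ, 2 of 30m NMJ and 0 of the xNMJ groups reached 1 CPM, so that it is not read against these shares. Of the other 7 tested members 1, Sdc4, was higher and 0 were lower. Every NMJ library was above every xNMJ library for 2.22% of all genes, among them Sdc4, and below for 1.19%, none of them members.

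For Sdc4 the log2 difference at 10 months was 2.40 (SE 0.34, 95% interval 1.71 to 3.10, edgeR adjusted p = 5.6e-06), and 3.003 with library totals in place of TMM. For Megf10 the fitted log2 difference was 5.44 (SE 1.20, edgeR adjusted p = 0.0019), a value that depends on the prior count since xNMJ was almost empty. Because Megf10 entered the test through NMJ libraries alone, this p is given as a description and not as support for the difference. The ratio of its pooled counts, scaled by library size, was 54.3 with a 95% counting interval of 14.9 to 450. That interval leaves out the spread between libraries, which held 2 to 80 counts in 10m NMJ, and is a description too.

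The 6 other tested members did not pass at 10 months. Cdh15 had a log2 difference of -1.36 (SE 0.64, 95% interval -2.66 to -0.06, edgeR adjusted p = 0.19) and all 8 NMJ libraries were below the xNMJ median, but its value was -0.42 on log2(TPM + 1) and -0.20 on log2(TPM + 0.1). Myod1 had -1.09 (SE 0.54, 95% interval -2.18 to 0.00, edgeR adjusted p = 0.22). The fibre factor Myf6 had a narrow 95% interval of -0.38 to 0.52 around 0.07 (edgeR adjusted p = 0.89), which covers the main scaling only. Its value was 0.52 on log2(TPM + 1) and 0.53 on log2(TPM + 0.1), without passing. With library totals in place of TMM it was 0.63 and passed (edgeR adjusted p = 0.031). The intervals of Pax7 (0.47, -1.77 to 2.71), Vcam1 (-0.51, -2.19 to 1.17) and Chodl (-0.53, -2.65 to 1.59) spanned several-fold differences in both directions. The direction of Chodl depended on the setting, as its value was 0.31 on log2(TPM + 1) and 1.01 on log2(TPM + 0.1). Over the 7 tested members other than Megf10 the median log2 difference was -0.51, or 0.076 with a replicate block, beside 0.0034 over all genes tested. Myf5 and Calcr entered only a fit without the filter on low counts, with log2 differences of -2.68 (SE 1.40, edgeR adjusted p = 0.27) and -2.20 (SE 1.35, edgeR adjusted p = 0.38).

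**Figure D3:**
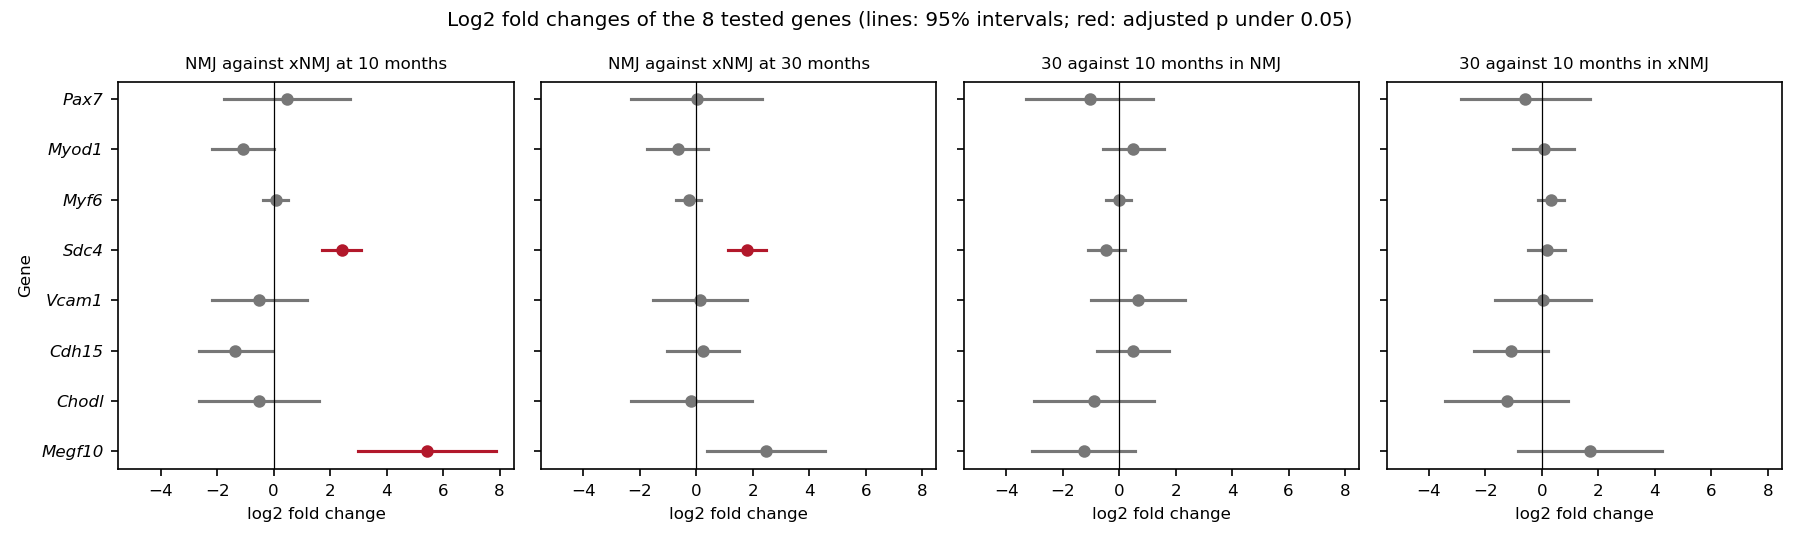
Log2 difference of the 8 tested genes with 95% intervals (x axis) in 4 comparisons, NMJ against xNMJ at 10 and at 30 months and 30 against 10 months in NMJ and in xNMJ, with red for an adjusted p under 0.05. Sdc4 is red for the region at both ages and Megf10 at 10 months, and no gene is red for age.

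At 30 months Sdc4 was again higher in NMJ and was the only member to pass the test. Its level was 12.2 ± 4.76 CPM in xNMJ and 42.2 ± 15.8 CPM in NMJ (SD, n = 8 each), a 3.45-fold difference. At this age 5% of all genes tested were higher and 4.25% lower in NMJ, against 1 and 0 of the 7 tested members other than Megf10, and NMJ lay wholly above xNMJ for 1.95% of all genes, Sdc4 among them, and wholly below for 0.5%, with no member. The log2 difference of Sdc4 was 1.79 (SE 0.33, 95% interval 1.11 to 2.46, edgeR adjusted p = 3.9e-04), and without replicate 5 of 30m xNMJ it was 1.79 (edgeR adjusted p = 6.5e-04). With library totals in place of TMM it was 2.43. With insert size as a covariate Sdc4 had 2.09 at 10 months and 1.65 at 30 months (edgeR adjusted p = 7.7e-05 and 9.4e-04).

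Megf10 had 100 counts in NMJ and 7 in xNMJ at 30 months, a scaled ratio of 6.39 with a 95% counting interval of 2.99 to 16.3 that leaves out the spread between libraries. Across libraries its log2 difference was 2.47 (SE 1.03, edgeR adjusted p = 0.14), and 2.35 (edgeR adjusted p = 0.19) without replicate 5 of 30m xNMJ. Without replicate 7 of 30m xNMJ, which held 4 of the 7 counts, the difference was 3.58 (edgeR adjusted p = 0.039), so that 1 library decided this call, and without replicate 8 of 30m NMJ, which held 42 of the 100 counts, it was 1.52 (edgeR adjusted p = 0.42). The other members had log2 differences from -0.66 for Myod1 (SE 0.53, edgeR adjusted p = 0.54) to 0.23 for Cdh15 (SE 0.63, edgeR adjusted p = 0.89), with Pax7 at 0.01 (SE 1.14), or 0.63 without replicate 5 of 30m xNMJ, and Myf6 at -0.27 (SE 0.22). The value of Cdh15 was 0.91 with library totals in place of TMM and 1.04 on log2(TPM + 0.1), and it passed on neither. The signs of Myod1, Myf6 and Chodl at 30 months depended on the scale, as they were 0.015, 0.38 and 0.55 with library totals in place of TMM, and 0.11, 0.30 and 0.35 on log2(TPM + 1), and none of the 3 passed. The median over the 7 tested members other than Megf10 was 0.010, beside -0.014 over all genes, and 0.23 without replicate 5 of 30m xNMJ. In the fit without a filter Myf5 had -0.75 (SE 1.35, edgeR adjusted p = 0.83) and Calcr 1.82 (SE 1.42, edgeR adjusted p = 0.52).

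Whether the region differences changed with age was tested directly as the interaction of age and region. No member passed, and 0 of all 13990 genes did in edgeR, with 709 at an unadjusted p under 0.05. The difference of Megf10 was smaller at 30 than at 10 months by a log2 value of -2.97 (SE 1.56, unadjusted p = 0.065, edgeR adjusted p = 0.9998), and that of Sdc4 by -0.62 (SE 0.46, 95% interval -1.55 to 0.32, edgeR adjusted p = 0.9998). Cdh15, with opposite signs at 10 and 30 months, had an interaction of 1.59 (SE 0.90, unadjusted p = 0.085, edgeR adjusted p = 0.9998). That Megf10 passed at 10 and not at 30 months is thus not shown to be a difference between the ages.

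Age itself was compared within each region, 30 against 10 months. None of the 8 tested members passed in NMJ, where 0% of all genes were called by edgeR and 372 had an unadjusted p under 0.05. None passed in xNMJ, where 0.0429% of all genes, 6 in number, were called and 1321 had an unadjusted p under 0.05. For Sdc4 no change with age was detectable, with log2 differences of -0.46 (SE 0.32, 95% interval -1.11 to 0.19) in NMJ and 0.16 (SE 0.33, 95% interval -0.51 to 0.83) in xNMJ. For Myf6 the values were -0.02 (SE 0.22, 95% interval -0.47 to 0.43) and 0.33 (SE 0.22, 95% interval -0.12 to 0.78).

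The satellite cell gene Pax7 was at -1.05 (SE 1.10, 95% interval -3.29 to 1.19) in NMJ and -0.59 (SE 1.12, 95% interval -2.88 to 1.69) in xNMJ with age, a precision that leaves a fall and a rise alike within the interval. Megf10 was at -1.26 (SE 0.90) in NMJ, or -2.22 without replicate 8 of 30m NMJ, and Cdh15 at -1.10 (SE 0.64, edgeR adjusted p = 0.62) in xNMJ, the value of Cdh15 having the smallest adjusted p among the members in xNMJ. Without replicate 5 of 30m xNMJ the value of Pax7 in xNMJ was -1.21 (edgeR adjusted p = 0.78), and without replicate 7 of 10m xNMJ, which held 73 of the 96 Pax7 counts of its group, it was 0.71. No member passed in either fit. In NMJ the edgeR adjusted p was 0.9998 for each of the 8. The median over the 7 tested members other than Megf10 was -0.017 in NMJ, beside 0.02 over all genes. In xNMJ it was 0.034, beside 0.04, and -0.12 without replicate 5 of 30m xNMJ. The 30m groups and the 10m groups each serve in a region and an age comparison, so that these comparisons share libraries.

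To place the members among genes of related function, 4 lists were read in the same fit. The counts of these and all later lists stand beside the shares of all 13990 genes tested. Those were 6.5% higher and 5.05% lower in NMJ at 10 months, then 5% higher and 4.25% lower at 30 months. Of 18 tested genes of satellite cells and Notch signalling, the pathway that holds satellite cells quiescent, 4 were higher and 0 lower in NMJ at 10 months, and 2 and 0 at 30 months. Spry1, an inhibitor of growth factor signalling that satellite cells need to return to quiescence, had 7.83 ± 6.90 CPM in xNMJ and 88.7 ± 25.0 CPM in NMJ at 10 months (log2 difference 3.49, SE 0.45, edgeR adjusted p = 1.3e-06) and a log2 difference of 3.62 (SE 0.46) at 30 months. The Notch target Hes1 was higher by log2 values of 1.03 (SE 0.24) and 1.005 (SE 0.24), with 84.2 ± 27.4 CPM in xNMJ and 172 ± 28.2 CPM in NMJ at 10 months. Syndecan-3 (Sdc3) was higher at 10 months (1.62, SE 0.38, edgeR adjusted p = 0.0031) and had 1.08 (SE 0.37, edgeR adjusted p = 0.063) at 30 months. The last called gene at 10 months was the laminin receptor subunit Itga7 (1.58, SE 0.46, edgeR adjusted p = 0.019), which was no longer called without replicate 7 of 10m NMJ (edgeR adjusted p = 0.058) or with a replicate block. The median over this list was 0.77 at 10 months and 0.26 at 30 months. The paired-box factor Pax3, the relative of Pax7, did not pass, at -0.58 (SE 0.75) and -0.28 (SE 0.74).

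Of 13 tested partners and relatives of the surface members, 3 were higher at 10 months, 4 at 30 months and 0 lower at either. The shares over all genes tested were 6.5% and 5% higher and 5.05% and 4.25% lower at the 2 ages. Calcrl, a receptor of the same family as Calcr that binds calcitonin gene-related peptide when it is paired with Ramp1, had 3.998 ± 1.26 CPM in xNMJ and 127 ± 38.9 CPM in NMJ at 10 months (log2 difference 5.004, SE 0.47, edgeR adjusted p = 3.1e-09), and a log2 difference of 3.95 (SE 0.44) at 30 months, or 4.93 without replicate 5 of 30m xNMJ. On the per-length scale Calcrl had a mean of 40.3 TPM in 10m NMJ and 41.3 TPM in 30m NMJ, where Calcr had 0.0251 and 0.123 TPM. Its partner Ramp1 was higher by 1.26 (SE 0.30, edgeR adjusted p = 0.0035) at 10 months and 0.91 (SE 0.30, edgeR adjusted p = 0.044) at 30 months. Syndecan-2 (Sdc2) was higher by 3.21 (SE 0.55) and 2.04 (SE 0.53), the latter 2.75 without replicate 5 of 30m xNMJ, whereas syndecan-1 (Sdc1) did not pass, at 0.04 (SE 1.34) and 1.43 (SE 1.39). The integrin subunit Itgb1 passed at 30 months alone (0.77, SE 0.23, edgeR adjusted p = 0.031). At 30 months the call of Itgb1 held in 24 of 32 fits that left out 1 library and that of Ramp1 in 20. Medians over the list were 0.49 and 0.39.

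Among 19 tested genes of differentiation and fusion, 2 were higher and 2 lower in NMJ at 10 months and 3 were higher and 0 lower at 30 months. Of all genes tested 6.5% were higher and 5.05% lower at 10 months, and 5% and 4.25% at 30 months. Myog, the factor that drives differentiation and is also known to be switched on in denervated fibres, had 0 to 8 counts in xNMJ and 6 to 70 in NMJ at 10 months, then 0 to 9 in xNMJ and 12 to 191 in NMJ at 30 months. Its log2 difference was 3.02 (SE 0.99, edgeR adjusted p = 0.042) at 10 months and 3.33 (SE 0.97, edgeR adjusted p = 0.023) at 30 months. Myog reached 1 CPM in 16 libraries, nearly all of them NMJ, and so passed the filter through NMJ libraries. As for Megf10, these p-values are given as a description, and Myog is not read against the shares over all genes. The call of Myog at 10 months was lost in 11 of 32 fits that left out 1 library, up to an edgeR adjusted p of 0.10, and in 3 of 9 other settings (no filter, only the 2 groups, insert size as a covariate), and the difference was 5.06 without replicate 6 of 10m xNMJ. At 30 months it was lost in 1, without replicate 6 of 30m NMJ (edgeR adjusted p = 0.071). Ncam1, an adhesion molecule of satellite cells, synapses and terminal Schwann cells, was higher by 4.43 (SE 0.43) and 3.61 (SE 0.41), the latter 4.08 without replicate 5 of 30m xNMJ.

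The adhesion molecule Jam3 was higher at 30 months (2.04, SE 0.63, edgeR adjusted p = 0.034) but not in 6 of 32 fits that left out 1 library, replicate 5 of 30m xNMJ among them, and without that library 2 genes of this list were higher. The perinatal myosin Myh8 was lower at 10 months (-0.77, SE 0.18), and it was not called on the TPM scale or with library totals in place of TMM. The medians over the list were 0.15 and -0.011. The fusion proteins myomaker (Mymk) and myomixer (Mymx) had counts in 7 and 9 of 32 libraries and were not tested. Of the 5 proliferation genes 3 were tested and none passed at either age, with Mki67 at 0 in all NMJ libraries.

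**Figure D4:**
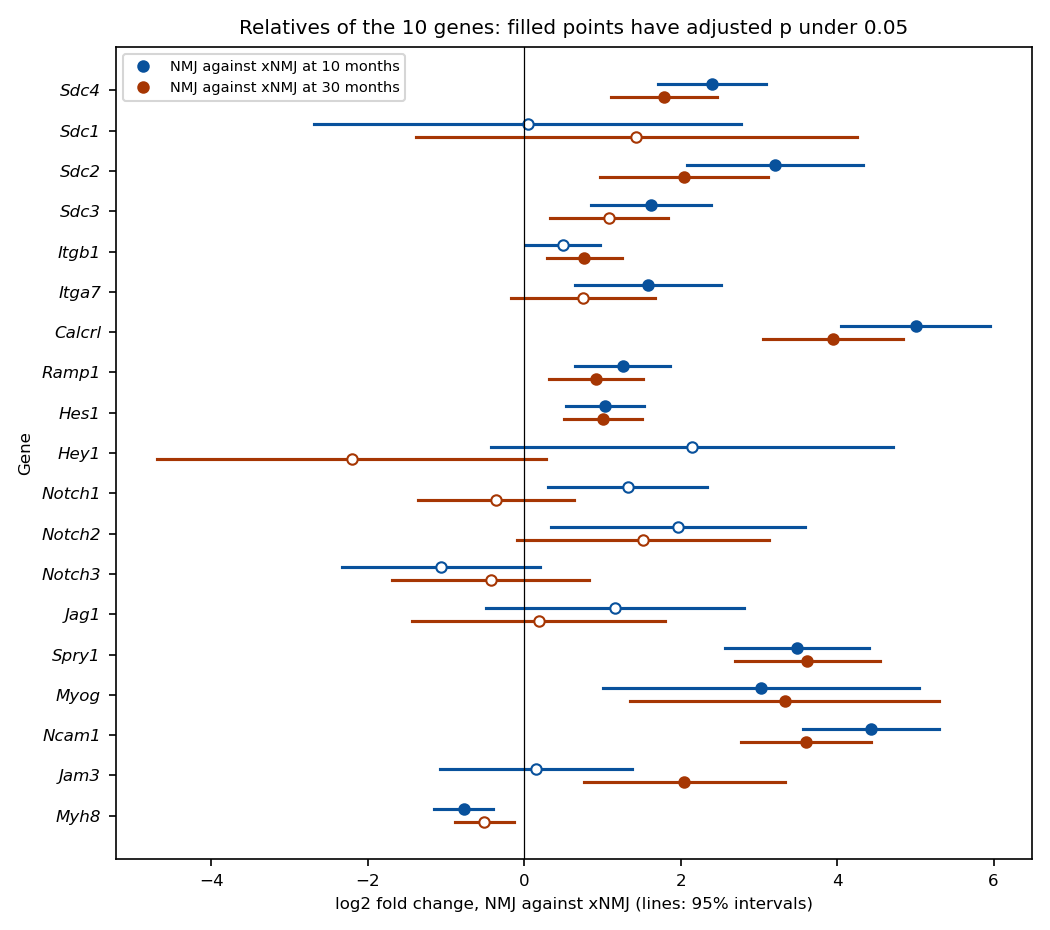
Log2 difference of NMJ against xNMJ at 10 and at 30 months for Sdc4 and related genes, with 95% intervals (x axis) and filled symbols for an adjusted p under 0.05. At 10 months Calcrl, Ncam1, Spry1, Myog and Sdc2 lie to the right of Sdc4, and Sdc1 lies near 0.

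Markers of other cells that a captured region can hold moved with the region too. Of 6 genes of Schwann cells, the glia that cover the nerve ending, 5 were higher in NMJ at each age, and their median summed level was 123 TPM in 10m NMJ and 115 TPM in 30m NMJ against 3.78 and 4.03 TPM in xNMJ. Of 5 genes of fibroblasts and fibro-adipogenic progenitors 3 were higher at each age (Pdgfra, Dcn and Lum), with 851 and 806 TPM in NMJ against 125 and 133 TPM in xNMJ, mostly Dcn. Of 5 macrophage genes 3 were higher at 10 months and 2 at 30 months, with 31.8 and 25.5 TPM against 3.13 and 4.09 TPM and with Adgre1 at 0 in all 30m xNMJ libraries. Adgre1 thus passed the filter without any 30m xNMJ library, so that its call is a description, as for Megf10. The macrophage call of Cd14 at 10 months was lost without replicate 3 of 10m NMJ (edgeR adjusted p = 0.062), with insert size as a covariate and on both TPM scales. Its call at 30 months was lost with insert size as a covariate and held in 22 of 32 fits that left out 1 library, and not without replicate 5 of 30m xNMJ, which left Adgre1. The part of these cells in the differences of Sdc4, Megf10, Spry1, Calcrl, Ncam1 and the other genes above was not tested.

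Other marker lists had fewer calls or calls in the other direction. Of 5 tested endothelial genes 0 were higher, and Cdh5 was lower at 30 months (-1.29, SE 0.34), with summed levels of 26.4 and 27.0 TPM in xNMJ and 24.8 and 19.4 TPM in NMJ. Of 5 fibre genes Ckm, Acta1 and Tnnt3 were lower in NMJ at both ages, Ckm by log2 values of -1.08 and -1.08, but none of them was called at either age with library totals in place of TMM, and only Tnnt3 was on the TPM scale. The same change of scale also ended the call of Cdh5. Of 5 genes of pericytes and smooth muscle, Cspg4 was higher at both ages and Rgs5 lower at 30 months, and of 2 tested tenocyte genes Mkx was lower at both. The calls of Rgs5 and, at 30 months, of Mkx were lost on the TPM scale and with library totals, and that of Cspg4 at 30 months held in 23 of 32 fits that left out 1 library, and not without replicate 5 of 30m xNMJ. Of the 6 synaptic genes all 6 were higher at both ages, with medians of 5.91 and 4.29, the latter 5.85 without replicate 5 of 30m xNMJ. Chrne passed the filter almost wholly through NMJ libraries, so that its calls are a description, as for Megf10. With age, no gene of any of these lists passed in NMJ, and in xNMJ only Etv5 did (4.61, SE 0.87, edgeR adjusted p = 0.031), a call that held in 24 of 32 fits that left out 1 library and in 4 of 8 other settings, and not without replicate 5 of 30m xNMJ.

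**Figure D5:**
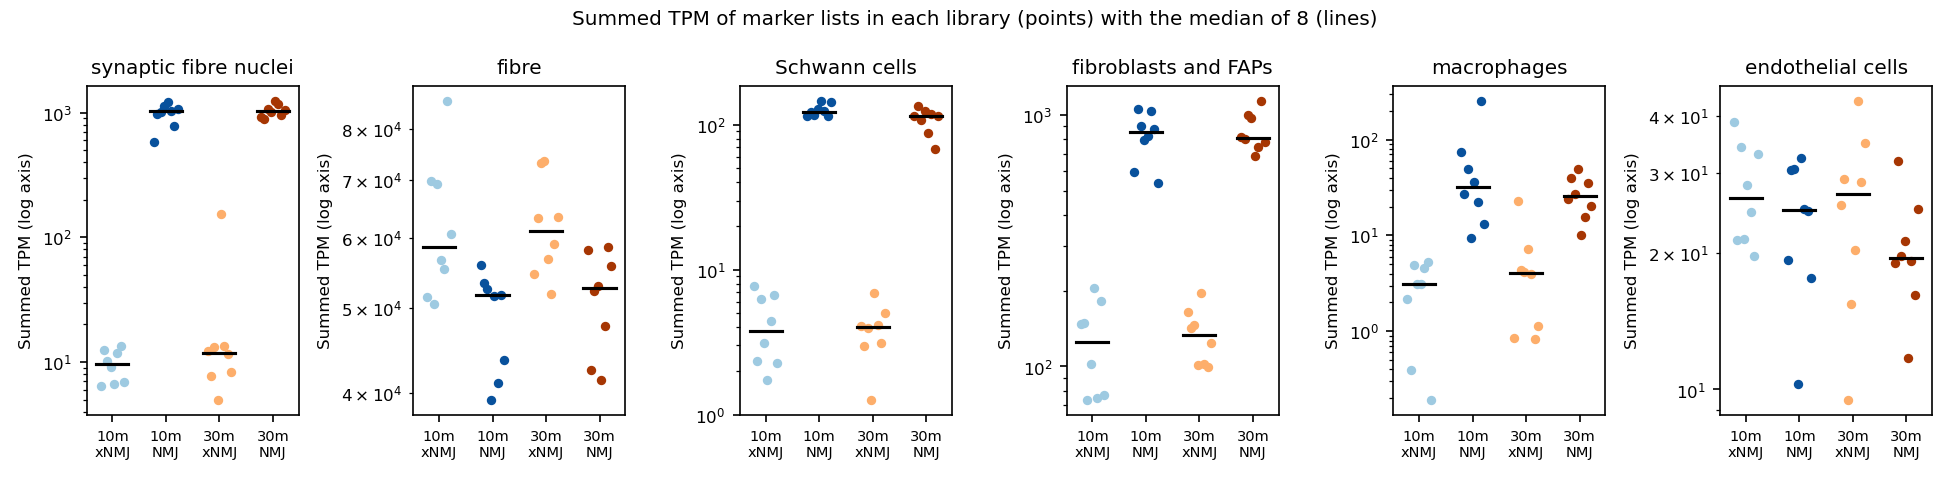
Summed TPM (log axis) of 6 gene lists in each of the 32 libraries by group, with a line at the median. Schwann cell, fibroblast and synaptic lists are higher in NMJ than in xNMJ, endothelial and fibre lists overlap between regions, and 1 library of 30m xNMJ is high for the synaptic list.

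The promoters of 6 of the 10 members were in the RefSeq table used here (GRCm38.p6, 250 bases before to 50 after a transcription start), and no promoter of Myf6, Myod1, Vcam1 or Megf10 was. They were searched on both strands for CANNTG, the E-box letters bound by myogenic factors, for CAGCTG, the form that Myod1 favours and that CANNTG includes, and for CCGGAA, the letters of the N-box through which some synaptic genes are known to be switched on. Sdc4 is shown for its region difference and Cdh15 as 1 of the members, with Chodl, that held the most E-box letters. The Sdc4 promoter (chr2:164443139-164443438, minus strand) and the Cdh15 promoter (chr8:122848124-122848423, plus strand), whose RefSeq starts lie inside the GENCODE gene bounds given above, are printed 5′ to 3′ in the direction of transcription, with CCGGAA on the opposite strand (TTCCGG) in capitals for Sdc4 and CANNTG in capitals for Cdh15.
Sdc4: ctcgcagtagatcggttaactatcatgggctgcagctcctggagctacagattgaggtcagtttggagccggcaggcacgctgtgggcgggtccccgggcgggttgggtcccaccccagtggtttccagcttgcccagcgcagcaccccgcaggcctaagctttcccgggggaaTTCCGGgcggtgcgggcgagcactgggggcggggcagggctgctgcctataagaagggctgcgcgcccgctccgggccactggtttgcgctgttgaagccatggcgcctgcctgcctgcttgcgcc
Cdh15: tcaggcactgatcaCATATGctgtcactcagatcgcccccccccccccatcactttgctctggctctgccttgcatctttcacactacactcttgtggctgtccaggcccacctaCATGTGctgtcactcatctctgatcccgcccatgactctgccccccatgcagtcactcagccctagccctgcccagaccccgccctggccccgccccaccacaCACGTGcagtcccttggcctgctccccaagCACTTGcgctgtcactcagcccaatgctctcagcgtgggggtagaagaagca
Sdc4 held 1 CCGGAA match, at position -76 from the start, and 0 CANNTG. Cdh15 held 4 CANNTG matches and 0 CCGGAA, and Chodl also had 4 CANNTG. Neither Pax7 nor Myf5 had a match to any of the letters, of the Calcr promoters 1 had 1 CANNTG, and CAGCTG was in none. Among 32851 promoters of this length 72.3% held CANNTG, 6.49% held it at least 4 times, 16.3% held CAGCTG and 14.9% held CCGGAA. A match is a description of the letters in this window.

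The genes whose level ran most like that of each member were found over the 32 libraries by Pearson's r of log2 CPM. For Sdc4 these were Pdlim4 (r = 0.86), Col6a2 (0.85) and Col20a1 (0.84), and for Megf10 Atp2b2 (0.77), Plxnc1 (0.77) and Dmp1 (0.73). All points share the split into regions and ages and the depth of their library. The best r of Pax7 was 0.64 (Alox5ap), of Myf6 0.63 (Nrbf2), of Myod1 0.65 (BC050972), of Vcam1 0.61 (Abcb1a), of Cdh15 0.67 (Snupn) and of Chodl 0.64 (Tipin). Among the members themselves the pair with the strongest relation was Myod1 and Megf10, at -0.59 over all libraries and -0.40 within groups. Sdc4 and Megf10 had 0.46 over all libraries and -0.29 once the group means were taken out. Pax7 and Chodl had 0.011.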

How the data were processed

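Libraries were made with SMART-Seq v4 and sequenced single-end, without strand. The authors trimmed reads with Cutadapt 1.9.1 and assigned them with kallisto 0.43.1 to protein-coding transcripts (GRCm38), a read on several transcripts being split equally, and deposited gene counts as whole numbers and TPM. The deposited counts of 32 libraries were tested with edgeR 4.0.16 (R 4.3.3; TMM, quasi-likelihood test, 4 groups of 8 in 1 fit) after a filter of 1 CPM in at least 8 libraries, with Benjamini-Hochberg adjustment over 13990 genes and a threshold of 0.05. Neighbours and member pairs used log2 CPM with a prior count of 2. Deposited TPM served for levels between genes and, with limma 3.58.1 on log2(TPM + 1) and log2(TPM + 0.1), as an alternative. Further alternatives were DESeq2 1.42.0, edgeR with the DESeq2 size factors, all genes unfiltered, a fit of only the groups compared, insert size as a covariate, a replicate block, each library left out and, chosen after seeing the data, library totals without TMM. Every member was named, and from each other list up to 3 called genes per direction with the smallest adjusted p, with Myog, Pax3, Mymk and Mymx always named; Itga7, Sdc1, Mki67 and Ramp1 at 30 months were named after their values were seen. Calls of lists without replicate 5 of 30m xNMJ were also added after seeing the data. The members and lists were chosen with earlier results of these data known. Gene positions are from GENCODE (GRCm38). Some genes of the lists that were counted are not reported here by name. The code was tested on simulated data.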

Additional observations from a re-analysis of the deposited data

Results flagged for a closer look

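In 10 of the 40 sets of 1 gene in 1 group the highest library lay far from the other 7 (Dixon's criterion at the 95% level, which chance meets in about 1 of 20 sets of normally distributed values, a rate that does not hold for sparse and skewed counts such as these), and 8 genes were concerned. For the transcription factors these were Pax7 in 10m xNMJ replicate 7 (8.41 CPM, next 2.56), Myf5 in 30m xNMJ replicate 8 (3.34 CPM, next 0.618) and Myod1 in 10m NMJ replicate 3 (12.4 CPM, next 4.43). Sdc4 reached 77.0 CPM in 30m NMJ replicate 4, where the next library had 46.1 CPM. Replicate 8 was highest for Vcam1 in both 10m groups, with 12.6 CPM (next 2.54) in xNMJ and 5.23 CPM (next 2.47) in NMJ. Chodl had 11.3 CPM in 30m xNMJ replicate 1 (next 1.68). The remaining sets rest on few counts, namely Megf10 in 30m xNMJ replicate 7 (0.960 CPM from 4 counts), Calcr in 10m xNMJ replicate 5 (2.19 CPM from 12 counts) and Calcr in 10m NMJ replicate 1 (0.412 CPM from 4 counts).

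Leaving out these libraries moved 5 region differences that were not called. The log2 difference at 10 months went from 0.47 to 1.78 for Pax7 without replicate 7 of 10m xNMJ and from -0.51 to 0.67 for Vcam1 without replicate 8 of 10m xNMJ. Over all fits that left out 1 library, the value of Pax7 at 10 months ran from 0.02 to 1.78. Replicate 8 of 10m NMJ, which had the insert size of 52 bp, held 130 of the 259 Pax7 counts of its group. The log2 difference of Chodl at 30 months went from -0.18 to 1.31 without replicate 1 of 30m xNMJ. A call was gained by Myod1 at 10 months (-1.09 to -1.67, edgeR adjusted p = 0.035) without replicate 3 of 10m NMJ and Megf10 at 30 months (2.47 to 3.58, edgeR adjusted p = 0.039) without replicate 7 of 30m xNMJ. With age in xNMJ, Pax7 went from -0.59 to 0.71 without replicate 7 of 10m xNMJ, Vcam1 from 0.03 to 1.21 without replicate 8 of 10m xNMJ and Chodl from -1.25 to -2.73 without replicate 1 of 30m xNMJ. With age in NMJ, Myod1 went from 0.50 to 1.08 without replicate 3 of 10m NMJ. None of these 4 age differences was called.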

How the results depend on the processing

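Sdc4 passed at both ages under all 9 other settings and all 32 fits that left out 1 library, with leave-one-out log2 differences of 2.26 to 2.60 at 10 months and 1.61 to 1.89 at 30 months, and 2.09 to 3.003 and 1.65 to 2.43 over the other settings. Megf10 passed at 10 months throughout, with 4.95 to 6.05 when a library was left out and 0.51 on log2(TPM + 1). It entered the test through NMJ libraries alone and its edgeR values depend on the prior count, so this is not read as stability. The number of members lower at 10 months was 0 to 1 when a library was left out (Myod1, -1.67, edgeR adjusted p = 0.035, without replicate 3 of 10m NMJ), and the number higher at 30 months was 1 to 2 (Megf10, without replicate 7 of 30m xNMJ). No value of a called member reversed.

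With library totals in place of TMM, chosen after seeing the data, the median over all genes moved to 0.56 at 10 months and 0.61 at 30 months, and Myf6 at 10 months (0.63, edgeR adjusted p = 0.031) and Megf10 at 30 months (3.04, edgeR adjusted p = 0.038) were called, giving 2 members higher at 30 months. Calls over all genes went from 909 higher and 706 lower to 2659 and 210 at 10 months (56.3% to 92.7% higher), and from 700 and 595 to 2687 and 76 at 30 months (54.1% to 97.2%). On log2(TPM + 1) they were 2681 and 237 at 10 months and 3501 and 60 at 30 months, and on log2(TPM + 0.1) 2786 and 228, and 3627 and 54. With insert size as a covariate 434 genes were lower at 10 months. DESeq2 called 51 higher and 33 lower with age in xNMJ, and 2 and 8 in the interaction.

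Replicate numbers are shared between groups, but the mean correlation of same-numbered libraries was 0.089 at 10 months and 0.081 at 30 months, against -0.013 and -0.011 for other numbers, with 4 and 1 of 8 pairs over 0.1 and 4 of 8 libraries closest to their own number at each age. This is a hint of pairing from the data. The paper describes synaptic and extra-synaptic regions as collected per sample, without saying which libraries share an animal. The fit without the block was kept because the labels do not say that a number marks an animal, and it ignores any pairing. At 30 months the pair of replicate 5, with the xNMJ library that stood apart, had 0.37, and the other pairs had -0.018 to 0.091. With the replicate block 2 members were higher at 10 months (Sdc4 and Megf10) and 1 at 30 months (Sdc4), 0 were lower, and Chodl at 10 months turned from -0.53 to 1.16 without passing. Over all genes 1032 and 797, and 870 and 661, were then called, against which Megf10 is not read. Depth limits Pax7, Myf5, Chodl, Megf10 and Calcr, which lie near 3 counts in many libraries.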
